A study of Caenorhabditis elegans with 32 samples.

Results

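The 50 genes described here are those of Caenorhabditis elegans neurons that release transmitter, make or carry it, receive it, sense the surroundings or set how readily a neuron fires. They were chosen by name: a transcript belongs to them where its gene name in the deposited isoform table, without the prefix of the annotation, is one of the 50. The rule found 66 of the table's 16422 transcripts, from 45 of the 50 genes, and 63 transcripts of 42 genes had the status OK in the tables that give one. The names unc-31, ida-1, cat-2, tbh-1 and lev-1 were not found there, and their values below rest on RefSeq accessions in the other tables, which lies outside the rule. By role the 66 transcripts divide into 22 of the release machinery, 18 of transmitter synthesis and transport, 13 of receptors, 7 of sensory genes and 6 of excitability genes.

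At a synapse, calcium entering through a voltage-gated channel makes vesicles loaded with transmitter fuse with the membrane, by way of the SNARE proteins synaptobrevin, syntaxin and SNAP-25 and the factors that ready them. Acetylcholine, GABA, glutamate, serotonin, dopamine and octopamine each have their own synthetic enzymes, vesicle loaders and receptors, and many of these are made in a handful of the animal's neurons. Worms lose movement and sensory behaviour with age, which is why the transcripts of these genes are of interest in an ageing series.

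The mRNA came from whole adults, so fewer neurons and less of a transcript per neuron cannot be told apart, nor can neurons be separated from other cells that use the same gene. Every group carried glp-1(e2141), a temperature-sensitive allele that leaves animals raised at the restrictive temperature without most of their germline. There were day 12 and day 2 adults of 5 kinds, with 2 libraries in each of the 10 groups: double mutants that also carry met-1(n4337), glp-1(e2141) animals labelled met-1 RNAi, glp-1(e2141) controls of the mutant, glp-1(e2141) animals labelled L4440 (the empty vector of feeding RNA interference) and untreated glp-1(e2141) animals grown beside chromatin samples. MET-1 is a methyltransferase for lysine 36 of histone H3, and the 12 chromatin samples of the series were not analysed here. No label states that the 2 libraries of a group were separate cultures, so a p-value here speaks of the spread between libraries, which can be technical.

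Values for single libraries exist for the L4440 and met-1 RNAi-labelled animals, and the other groups have 1 value per age for both libraries together. Relative read numbers of the 8 libraries ran from 0.355 to 1.299, the lowest being replicate 2 of L4440 at day 12, and 14577 to 17234 transcripts reached 1 FPKM. The targeted gene went against its label: met-1 had 13.03 to 80.1 FPKM in libraries labelled met-1 RNAi, against 5.03 to 29.8 FPKM in L4440 libraries, so that arm is called by its label throughout. The deposited values of the median transcript were 0.48 higher at day 12 than at day 2 in met-1 RNAi-labelled animals and 0.46 higher in L4440 animals on the log2(FPKM + 1) scale. Changes in these 8 libraries are therefore given from a fit in which every library was set to the same median, and FPKM values are printed as deposited. Pan-neuronal markers outside the 50 genes (unc-119, rgef-1, unc-33 and others, 6 of 7 found, none below 1 FPKM throughout) summed to 176 to 222 FPKM at day 12 and 130.4 to 160.2 FPKM at day 2, as deposited. With each library set to one median, none of their 6 gene sums was called. The median change of these sums was −0.23 in met-1 RNAi-labelled and −0.13 in L4440 animals, against 0.28 and 0.43 as deposited. By transcript, 1 of unc-44 was called lower in both arms, at −0.81 in met-1 RNAi-labelled and −0.76 in L4440 animals (limma adjusted p = 0.0339 and 0.0444).

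A minority of the genes changed with age past the test, and with the libraries set to one median more of them were lower than higher at day 12 in both arms; as deposited, more were higher. Of 48 member transcripts with enough signal to test, 3 were higher and 6 lower at day 12 in met-1 RNAi-labelled animals, where 8.35% of all 18572 tested transcripts were called higher and 12.3% lower (limma, Benjamini-Hochberg adjusted p below 0.05). In L4440 animals 2 were higher and 6 lower, against 6.78% higher and 11.9% lower among all tested transcripts. These shares of members, 6.25% and 12.5% in met-1 RNAi-labelled and 4.17% and 12.5% in L4440 animals, lie near those of all transcripts. The median change of the members was 0.01 in met-1 RNAi-labelled and −0.25 in L4440 animals, beside −0.01 and −0.07 for all transcripts. Without 1 library, 2 or 3 transcripts were lower in met-1 RNAi-labelled animals where it was any of their own 4 or either L4440 day 12 library. In L4440 animals 2 or 3 were lower without replicate 2 of L4440 at day 12 or either L4440 day 2 library. Likewise 1 was higher in met-1 RNAi-labelled animals without their replicate 1 of day 12 or either of their day 2 libraries, and 1 in L4440 animals without either L4440 day 12 library, replicate 2 of L4440 at day 2 or either met-1 RNAi-labelled day 2 library. As deposited, 5 were higher and 2 lower in met-1 RNAi-labelled animals, against 23.8% and 7.64% of all transcripts, and 8 were higher and 2 lower in L4440 animals, against 22.6% and 7.28%. The mec-7, mec-12, bas-1 and goa-1 transcripts were called lower and those of odr-3 and mod-5 higher in both arms.

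Many of these genes are split over several transcripts, and the deposited estimates moved signal between transcripts of one gene from library to library. Syntaxin, encoded by unc-64, had 97.6 and 122.0 FPKM at day 12 and 47.5 and 63.3 FPKM at day 2 in met-1 RNAi-labelled animals, and 86.3 and 87.7 FPKM at day 12 and 44.1 and 63.5 FPKM at day 2 in L4440 animals, when its transcripts were summed. The share of that sum given to NM_001027444 was 54.3% and 45.3% at day 12 against 74.3% and 0.0400% at day 2 in met-1 RNAi-labelled libraries, and 31.1% and 0.107% at day 12 against 30.3% and 25.3% at day 2 in L4440 libraries. Replicates of 1 group thus gave this transcript both much and almost nothing, while the sums lay closer together. For that reason the genes are described below by the sum of their transcripts, including those matched by RefSeq accession, tested in the same way over 14704 genes.

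**Figure D1:**
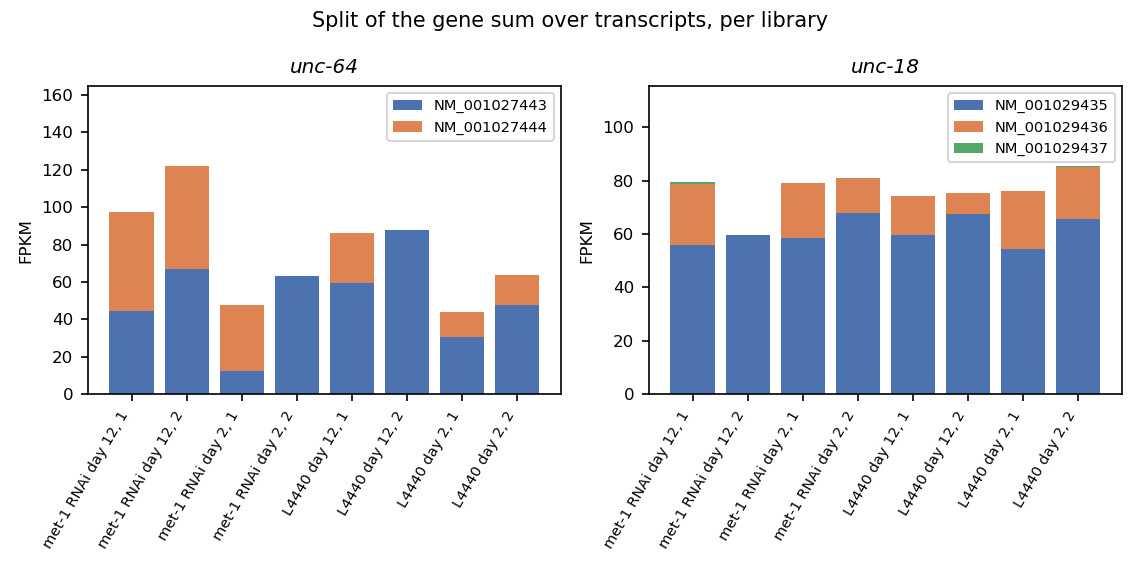
FPKM of each transcript of unc-64 and unc-18, stacked to the gene sum, in each of the 8 libraries (1 bar per library, day 12 left of day 2 in each arm, replicate number after the comma). As deposited, the height of the unc-64 bars separates the ages, at 97.6 and 122.0 FPKM against 47.5 and 63.3 FPKM in met-1 RNAi-labelled animals. The split between the colours varies between replicates. With libraries set to one median the unc-64 sum was called in neither arm (limma adjusted p = 0.212 in met-1 RNAi-labelled and 0.707 in L4440 animals).

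By gene sums, 41 of the 50 genes could be tested, 37 of them found by the rule and 4 by accession alone. In met-1 RNAi-labelled animals 3 were higher and 10 lower at day 12, against 11.5% higher and 16.1% lower among all 14704 genes. In L4440 animals the counts were the same, 3 higher and 10 lower, against 9.03% and 16.3%. The shares of members were 7.32% higher and 24.4% lower in each arm, and the same 13 genes were called in both. The share of all genes called in both arms was not counted, and both arms were tested in 1 fit that shares the spread. Lower were bas-1, tdc-1, tbh-1, unc-25, ace-2, unc-18, mec-12, mec-7, egl-30 and goa-1, the last with the opposite sign as deposited, and higher were odr-3, mod-5 and nmr-1. Of these 13, bas-1, tdc-1, tbh-1, mec-12 and odr-3 kept direction and call in both arms under each of the 11 alternatives run on gene sums. As deposited, 13 genes were higher and 5 lower in met-1 RNAi-labelled animals, against 33.4% and 9.52% of all genes, and 11 were higher and 5 lower in L4440 animals, against 31.9% and 8.83%. After quantile normalization 5 were higher and 6 lower in met-1 RNAi-labelled animals, against 14.5% and 16.2%, and 4 were higher and 7 lower in L4440 animals, against 12.02% and 14.4%. Without 1 library the count of lower genes was 4 or 5 in met-1 RNAi-labelled animals where the library left out was any of their own 4, and 6 in L4440 animals where it was replicate 1 of L4440 at either age. The count of higher genes was 1 in met-1 RNAi-labelled animals without their replicate 1 of day 12 or either of their day 2 libraries, and 5 without replicate 2 of L4440 at day 2; in L4440 animals it was 1 without either L4440 day 12 library or either met-1 RNAi-labelled day 2 library.

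**Figure D2:**
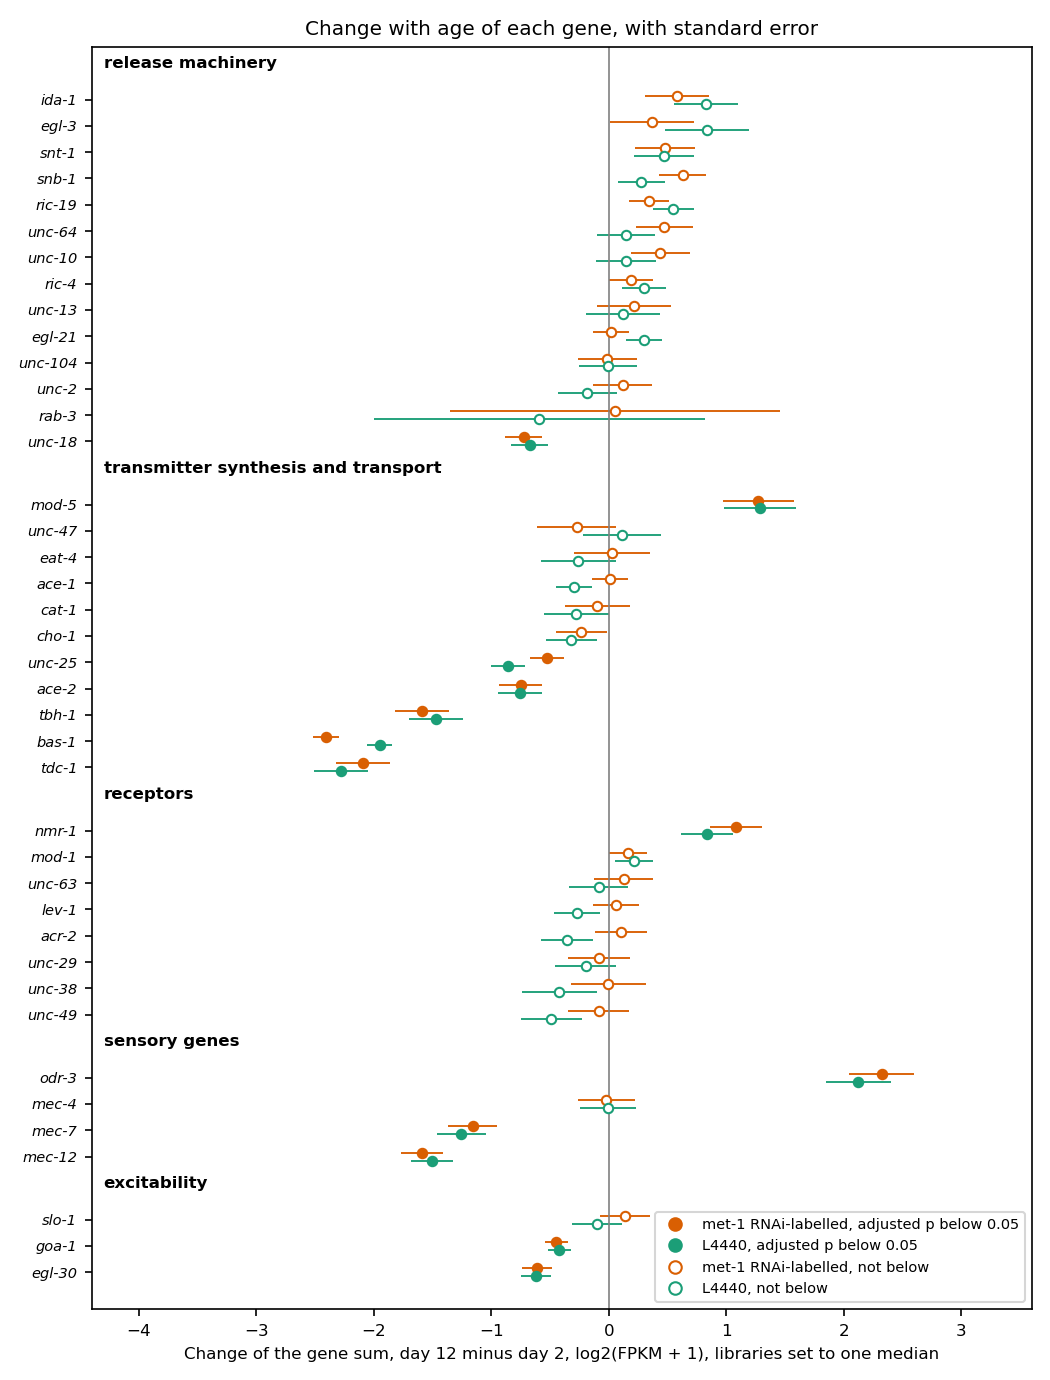
Change of each gene sum between day 12 and day 2 (horizontal axis, log2(FPKM + 1), libraries set to one median), with its standard error, for 40 genes grouped by role, met-1 RNAi-labelled animals above L4440 animals in each row. Filled points have an adjusted p below 0.05. The release machinery lies mostly right of 0 with 1 filled gene, and the filled points of transmitter synthesis and transport lie left of 0 except mod-5; unc-31, whose sum rests on 1 library, is not drawn.

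What the release machinery showed depended on the scaling. With libraries set to one median, of 15 genes 1 was called lower and none higher in each arm at an adjusted p below 0.05. Among all genes, 11.5% were called higher and 16.1% lower in met-1 RNAi-labelled and 9.03% and 16.3% in L4440 animals. The median change of the role was 0.34 in met-1 RNAi-labelled and 0.28 in L4440 animals, beside −0.01 and −0.07 for all genes tested. As deposited none was called lower, and 8 were higher in met-1 RNAi-labelled animals (snb-1, unc-64, unc-10, snt-1, ric-4, ric-19, ida-1 and egl-21) and 7 in L4440 animals (snb-1, snt-1, ric-4, ric-19, ida-1, egl-21 and egl-3). The median change was then 0.85 in met-1 RNAi-labelled and 0.84 in L4440 animals, beside 0.50 and 0.49 for all genes tested. On that scale 33.4% of all genes were called higher and 9.52% lower in met-1 RNAi-labelled and 31.9% and 8.83% in L4440 animals. After quantile normalization snb-1 and unc-64 were called higher in met-1 RNAi-labelled animals and snb-1 and ric-19 in L4440 animals, and none lower. Synaptobrevin, encoded by snb-1 and sitting in the vesicle membrane, had the highest mean FPKM of the members over the 8 libraries, although tbh-1 was above it in every day 2 library. It had 1951 and 2252 FPKM at day 12, against 935 and 970.2 FPKM at day 2, in met-1 RNAi-labelled animals. L4440 animals had 1715 and 1752 FPKM at day 12, against 828 and 1134 FPKM at day 2. As deposited, all 4 day 12 libraries lay above all 4 day 2 libraries. Relative to the median the snb-1 change was 0.63 ± 0.20 in met-1 RNAi-labelled animals (SE, limma adjusted p = 0.0687) and 0.28 ± 0.20 in L4440 animals (adjusted p = 0.372), short of the threshold. It passed as deposited, at 1.14 in met-1 RNAi-labelled and 0.84 in L4440 animals (limma adjusted p = 0.00628 and 0.0173), and after quantile normalization, at 0.90 in met-1 RNAi-labelled and 0.73 in L4440 animals (limma adjusted p = 0.0047 and 0.0112). The met-1 RNAi-labelled change also passed without either L4440 day 2 library (adjusted p = 0.0355 and 0.0361). In the tables with 1 value per age, snb-1 had 1477 against 728 FPKM in met-1 mutants, 1317 against 793 FPKM in their controls and 509 against 346 FPKM in untreated animals at day 12 against day 2.

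The gene called lower with libraries set to one median was unc-18, encoding the protein that binds syntaxin and is needed for fusion. It had 79.7 and 59.6 FPKM at day 12, against 79.2 and 80.9 FPKM at day 2, in met-1 RNAi-labelled animals. L4440 animals had 74.1 and 75.2 FPKM at day 12, against 76.3 and 85.6 FPKM at day 2. The deposited values of the ages overlapped in met-1 RNAi-labelled libraries and lay just apart in L4440 libraries. The low sum of replicate 2 of met-1 RNAi-labelled animals at day 12 came with NM_001029436 listed at 0 FPKM, against 22.9 FPKM in replicate 1. The other main transcript, NM_001029435, had 55.9 FPKM in replicate 1 and 59.6 FPKM in replicate 2. Set to one median, the change was −0.72 ± 0.16 in met-1 RNAi-labelled animals (SE, limma adjusted p = 0.0207) and −0.67 ± 0.16 in L4440 animals (adjusted p = 0.0282). The call was lost without replicate 2 of day 12 or either day 2 library in met-1 RNAi-labelled animals (adjusted p up to 0.0983), and in L4440 animals without any of the 4 L4440 libraries or either met-1 RNAi-labelled day 2 library (adjusted p up to 0.115). It passed in neither arm as deposited, at −0.21 in met-1 RNAi-labelled and −0.11 in L4440 animals (limma adjusted p = 0.31 and 0.59), or after quantile normalization, at −0.53 in met-1 RNAi-labelled and −0.44 in L4440 animals (limma adjusted p = 0.0767 and 0.136).

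With libraries set to one median, the other genes of the release machinery passed in neither arm. The dense-core vesicle protein ida-1 had 44.6 and 48.7 FPKM at day 12, against 22.6 and 20.2 FPKM at day 2, in met-1 RNAi-labelled animals. L4440 animals had 43.4 and 53.1 FPKM at day 12, against 24.1 and 13.02 FPKM at day 2. As deposited, day 12 lay above day 2 in every library of both arms. So it did for unc-104, whose change relative to the median was −0.01 in each arm, and the share of all genes so separated was not counted. The ida-1 change was 0.58 in met-1 RNAi-labelled and 0.82 in L4440 animals (limma adjusted p = 0.174 and 0.0795). As deposited it was 1.09 in met-1 RNAi-labelled and 1.39 in L4440 animals (limma adjusted p = 0.0271 and 0.0139). The neuropeptide-processing enzymes egl-3, a proprotein convertase, and egl-21, a carboxypeptidase, differed in their calls with the scaling. The egl-3 change was 0.37 in met-1 RNAi-labelled and 0.84 in L4440 animals (limma adjusted p = 0.5 and 0.147), and as deposited 0.88 in met-1 RNAi-labelled and 1.40 in L4440 animals (limma adjusted p = 0.103 and 0.0293). The egl-21 change was 0.02 in met-1 RNAi-labelled and 0.30 in L4440 animals (limma adjusted p = 0.943 and 0.222), and as deposited 0.53 in met-1 RNAi-labelled and 0.86 in L4440 animals (limma adjusted p = 0.0398 and 0.00968). Set to one median, egl-3 passed in L4440 animals without replicate 1 of L4440 at day 2, at 1.31 (adjusted p = 0.0424), and so did ida-1 at 1.22 (adjusted p = 0.0164). In met-1 RNAi-labelled animals ida-1 passed without replicate 2 of L4440 at day 2 (adjusted p = 0.0494). The vesicle protein RIC-19 is known for its part in neuropeptide secretion, and ric-19 had 20.4 and 21.4 FPKM at day 12, against 10.2 and 12.3 FPKM at day 2, in met-1 RNAi-labelled animals. L4440 animals had 25.6 and 25.1 FPKM at day 12, against 9.91 and 12.7 FPKM at day 2. Its change was 0.34 in met-1 RNAi-labelled and 0.55 in L4440 animals (limma adjusted p = 0.205 and 0.0696), and it passed in L4440 animals at 0.74 without replicate 2 of day 2 (adjusted p = 0.0486). As deposited it was 0.85 in met-1 RNAi-labelled and 1.11 in L4440 animals (limma adjusted p = 0.0105 and 0.00506), and after quantile normalization 0.37 in met-1 RNAi-labelled and 0.58 in L4440 animals (limma adjusted p = 0.148 and 0.0495). The priming factors unc-13 and unc-10, the calcium channel unc-2, the vesicle motor unc-104, the calcium sensor snt-1, the SNAP-25 homologue ric-4 and unc-64 ranged from −0.18 to 0.48 over both arms, with adjusted p of 0.212 or more. As deposited, the snt-1 change was 0.99 in met-1 RNAi-labelled and 1.03 in L4440 animals (limma adjusted p = 0.0297 and 0.0276), and that of ric-4 was 0.70 in met-1 RNAi-labelled and 0.86 in L4440 animals (limma adjusted p = 0.0329 and 0.0187). The unc-64 change was 0.98 in met-1 RNAi-labelled and 0.71 in L4440 animals (limma adjusted p = 0.0199 and 0.055) as deposited and 0.67 in met-1 RNAi-labelled and 0.35 in L4440 animals (limma adjusted p = 0.0356 and 0.212) after quantile normalization. The unc-10 change as deposited was 0.95 in met-1 RNAi-labelled and 0.71 in L4440 animals (limma adjusted p = 0.0333 and 0.0793). The small GTPase gene rab-3 had 12.7 and 10.9 FPKM at day 12, against 7.90 and 7.40 FPKM at day 2, in met-1 RNAi-labelled animals. L4440 animals had 23.9 and 0.000593 FPKM at day 12, against 6.62 and 2.41 FPKM at day 2. Its L4440 day 12 replicates thus spanned its whole range and its change carried a standard error of 1.40. Without replicate 1 of day 12 the L4440 change was −2.91, which rests at day 12 on the 0.000593 FPKM of replicate 2 alone. That library had the lowest relative read number, 0.355. The unc-31 sum, for the activator of dense-core vesicle release, was 3386 FPKM in replicate 1 of met-1 RNAi-labelled animals at day 12 and 1.49 to 9.37 FPKM in the other 7 libraries, because 1 transcript was listed at 3381 FPKM there and at 0 elsewhere.

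Synthesis and transport of transmitters held 5 of the 10 genes that fell. Of 11 genes tested, 5 fell and 1 rose in each arm, and the median change was −0.27 in met-1 RNAi-labelled and −0.32 in L4440 animals. Of all genes, 16.1% fell and 11.5% rose in met-1 RNAi-labelled and 16.3% and 9.03% in L4440 animals. As deposited 3 were lower in each arm (bas-1, tbh-1 and tdc-1), and 2 higher in met-1 RNAi-labelled and 1 in L4440 animals. The shares of all genes were then 9.52% lower and 33.4% higher in met-1 RNAi-labelled and 8.83% and 31.9% in L4440 animals. The aromatic amino acid decarboxylase bas-1, which makes the last step to serotonin and to dopamine, had 15.9 and 15.9 FPKM at day 12, against 60.1 and 63.7 FPKM at day 2, in met-1 RNAi-labelled animals. L4440 animals had 25.7 and 22.8 FPKM at day 12, against 65.3 and 64.7 FPKM at day 2. The replicates lay close together and the ages far apart in both arms. The change was −2.41 ± 0.11 in met-1 RNAi-labelled animals (SE, limma adjusted p = 0.000239) and −1.95 ± 0.11 in L4440 animals (adjusted p = 0.000366), the smallest adjusted p among the 41 genes in each arm. In the tables with 1 value per age, bas-1 had 13.7 against 72.6 FPKM in met-1 mutants, 22.5 against 76.8 FPKM in their controls and 17.01 against 57.04 FPKM in untreated animals at day 12 against day 2.

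The enzymes of tyramine and octopamine fell with it. Tyrosine decarboxylase, encoded by tdc-1, makes tyramine and had 2.89 and 2.57 FPKM at day 12, against 11.6 and 8.87 FPKM at day 2, in met-1 RNAi-labelled animals. L4440 animals had 1.99 and 2.67 FPKM at day 12, against 11.7 and 8.40 FPKM at day 2. Every day 12 library was below every day 2 library. The change was −2.09 ± 0.23 in met-1 RNAi-labelled animals (SE, limma adjusted p = 0.00203) and −2.28 ± 0.23 in L4440 animals (adjusted p = 0.00165). Most of this signal is in transcript NM_063343, matched by accession, so the untreated table, which covers only the minor transcript, does not bear on it. Tyramine beta-hydroxylase, encoded by tbh-1, turns tyramine into octopamine and had 581 and 839.6 FPKM at day 12, against 1649 and 1324 FPKM at day 2, in met-1 RNAi-labelled animals. L4440 animals had 883 and 748 FPKM at day 12, against 1592 and 1472 FPKM at day 2. All 4 day 12 libraries were again the lower ones. The change was −1.59 ± 0.23 in met-1 RNAi-labelled animals (SE, limma adjusted p = 0.00508) and −1.47 ± 0.23 in L4440 animals (adjusted p = 0.00706). In the tables with 1 value per age tbh-1 had 463 against 1571 FPKM in met-1 mutants and 706 against 2148 FPKM in their controls at day 12 against day 2, and tdc-1 had 1.75 against 7.52 FPKM in met-1 mutants and 1.15 against 5.72 FPKM in controls. Both genes are known to be used by gonadal sheath cells as well as by the octopamine neurons, and no sheath marker was among the lists, so the cells in which the RNA fell were not identified.

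Glutamate decarboxylase, encoded by unc-25 and the source of GABA, had 16.99 and 19.8 FPKM at day 12, against 19.9 and 17.4 FPKM at day 2, in met-1 RNAi-labelled animals. L4440 animals had 15.3 and 17.1 FPKM at day 12, against 20.7 and 19.6 FPKM at day 2. The ages overlapped as deposited in met-1 RNAi-labelled libraries and lay apart in L4440 libraries. Relative to the median its change was −0.53 ± 0.15 in met-1 RNAi-labelled animals (SE, limma adjusted p = 0.0443) and −0.86 ± 0.15 in L4440 animals (adjusted p = 0.00926), and as deposited it was −0.02 and −0.30 and passed in neither arm. The call was lost without any 1 of the 8 libraries in met-1 RNAi-labelled animals (adjusted p up to 0.204), under the replicate block (adjusted p = 0.0645), after quantile normalization (adjusted p = 0.0505), and without replicate 1 of day 12 in L4440 animals (adjusted p = 0.0501). Acetylcholinesterase ace-2, which breaks acetylcholine down, had 15.3 and 16.6 FPKM at day 12, against 21.6 and 16.6 FPKM at day 2, in met-1 RNAi-labelled animals. L4440 animals had 15.3 and 16.4 FPKM at day 12, against 20.9999 and 15.9 FPKM at day 2. Its change was −0.75 in met-1 RNAi-labelled and −0.76 in L4440 animals (limma adjusted p = 0.0315 and 0.0325). Its call was lost in both arms without either day 12 library of either arm and without replicate 1 of the arm's own day 2 libraries (adjusted p up to 0.149), and as deposited (adjusted p = 0.343 and 0.433). The other acetylcholinesterase, ace-1, passed in neither arm, with a change of 0.01 in met-1 RNAi-labelled and −0.29 in L4440 animals (limma adjusted p = 0.973 and 0.223). As deposited it was 0.52 in met-1 RNAi-labelled and 0.27 in L4440 animals (limma adjusted p = 0.0408 and 0.212).

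The serotonin reuptake transporter mod-5 was the 1 gene of this role that rose. It had 10.3 and 5.36 FPKM at day 12, against 1.61 and 1.34 FPKM at day 2, in met-1 RNAi-labelled animals. L4440 animals had 9.98 and 7.62 FPKM at day 12, against 1.81 and 1.59 FPKM at day 2. Levels were low at day 2 and all 4 day 12 libraries were above them. The change was 1.27 ± 0.30 in met-1 RNAi-labelled animals (SE, limma adjusted p = 0.0282) and 1.29 ± 0.30 in L4440 animals (adjusted p = 0.0289). The call was lost without replicate 1 of day 12 or either day 2 library in met-1 RNAi-labelled animals (adjusted p up to 0.127), and in L4440 animals without any of the 4 L4440 libraries or either met-1 RNAi-labelled day 2 library (adjusted p up to 0.117). The vesicular transporters cat-1 for monoamines, eat-4 for glutamate and unc-47 for GABA and the choline transporter cho-1 passed in neither arm, with values of −0.32 to 0.11 and adjusted p of 0.334 or more. The dopamine transporter dat-1, tyrosine hydroxylase cat-2 and tryptophan hydroxylase tph-1, which start or end dopamine and serotonin signalling in a handful of neurons, averaged 0.616, 0.677 and 0.658 FPKM over the 8 libraries and did not enter the test. For choline acetyltransferase cha-1 and the acetylcholine loader unc-17, which share a locus, the status was not OK, so that only the isoform table holds usable values. In the authors' deposited table unc-17 had 1.76 FPKM at day 12 against 3.68 FPKM at day 2 in untreated animals, a log2 change of −1.06 with a q of 0.00866. In the authors' deposited table cha-1 had 1.38 against 2.49 FPKM, a log2 change of −0.85 with a q of 0.0566.

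**Figure D3:**
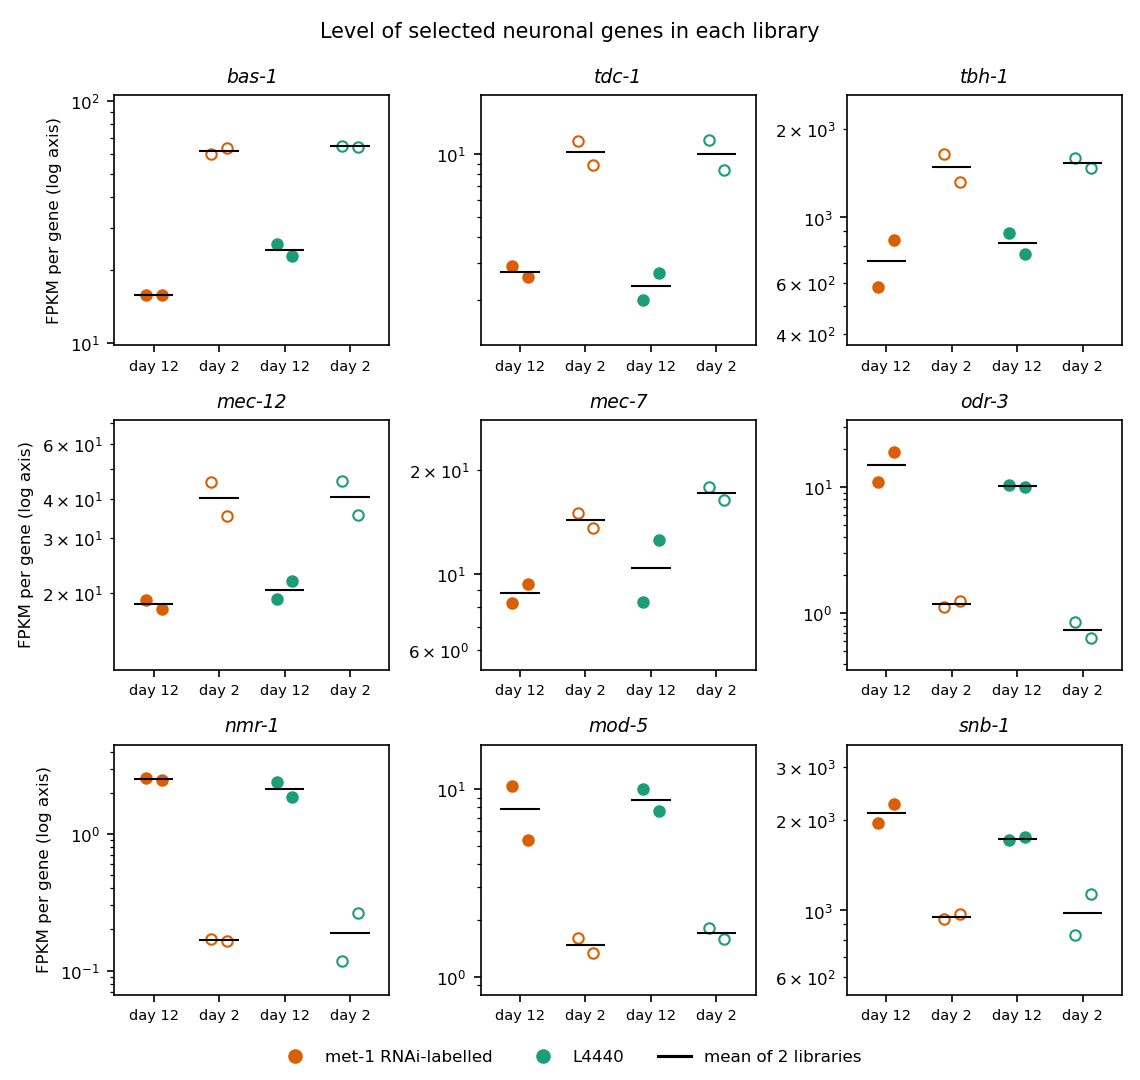
FPKM per gene in each library (log axes, 1 point per library, filled at day 12 and open at day 2, bar at the mean of 2 libraries) for 9 genes, met-1 RNAi-labelled animals left of L4440 animals. In both arms the deposited day 12 points lie below the day 2 points for bas-1, tdc-1, tbh-1, mec-12 and mec-7. They lie above them for odr-3, nmr-1, mod-5 and snb-1, and snb-1 was not called with libraries set to one median. For bas-1 the points are 15.9 and 15.9 against 60.1 and 63.7 FPKM in met-1 RNAi-labelled animals.

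Receptors other than unc-49, which averaged 24.1 FPKM, were low, and most of those tested were not called. Of 8 genes tested, 1 rose and none fell in each arm, and the median change was 0.08 in met-1 RNAi-labelled and −0.24 in L4440 animals. As deposited 2 were higher and none lower in each arm. Of all genes, 11.5% rose and 16.1% fell in met-1 RNAi-labelled and 9.03% and 16.3% in L4440 animals with one median. As deposited the shares were 33.4% and 9.52% in met-1 RNAi-labelled and 31.9% and 8.83% in L4440 animals. The gene that rose was nmr-1, a subunit of NMDA-type glutamate receptors, with 2.56 and 2.49 FPKM at day 12, against 0.170 and 0.164 FPKM at day 2, in met-1 RNAi-labelled animals. L4440 animals had 2.42 and 1.87 FPKM at day 12, against 0.117 and 0.263 FPKM at day 2. It was low at day 2 and above 1 FPKM in every day 12 library. The change was 1.08 ± 0.22 in met-1 RNAi-labelled animals (SE, limma adjusted p = 0.0166) and 0.84 ± 0.22 in L4440 animals (adjusted p = 0.0409). The call was lost in L4440 animals without any 1 of the 8 libraries (adjusted p up to 0.146) and under the replicate block (adjusted p = 0.0661) and after quantile normalization (adjusted p = 0.0575), and in met-1 RNAi-labelled animals without any 1 of their own 4 (adjusted p up to 0.0841). In the tables with 1 value per age nmr-1 had 4.66 against 0.470 FPKM in met-1 mutants, 2.25 against 0.334 FPKM in their controls and 1.99 against 0.391 FPKM in untreated animals at day 12 against day 2. The AMPA-type subunit glr-1 averaged 0.660 FPKM and was not tested.

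The levamisole-type acetylcholine receptor of body wall muscle is built from unc-29, unc-38, unc-63 and lev-1, and its subunits averaged 2.56, 3.44, 4.27 and 5.48 FPKM. Their changes were −0.09, 0.00, 0.13 and 0.06 in met-1 RNAi-labelled animals and −0.20, −0.42, −0.09 and −0.27 in L4440 animals, with adjusted p of 0.363 or more. The GABA-gated channel unc-49, also of muscle, had 28.2 and 32.9 FPKM at day 12, against 22.2 and 22.7 FPKM at day 2, in met-1 RNAi-labelled animals. L4440 animals had 16.5 and 28.9 FPKM at day 12, against 22.2 and 19.5 FPKM at day 2. Its change was −0.09 in met-1 RNAi-labelled and −0.49 in L4440 animals (limma adjusted p = 0.835 and 0.231). The L4440 value hung on which day 12 library was used, and without replicate 2 it was −0.88. In replicate 1, on which that value rests, 1 unc-49 transcript was listed at 0.273 FPKM, against 16.4 FPKM in replicate 2. The serotonin-gated chloride channel mod-1 and the motor neuron acetylcholine receptor subunit acr-2 passed in neither arm with libraries set to one median. The mod-1 change was 0.16 in met-1 RNAi-labelled and 0.21 in L4440 animals (limma adjusted p = 0.504 and 0.395), and as deposited it passed, at 0.67 in met-1 RNAi-labelled and 0.77 in L4440 animals (limma adjusted p = 0.0242 and 0.017). The acr-2 change was 0.10 in met-1 RNAi-labelled and −0.35 in L4440 animals (limma adjusted p = 0.769 and 0.303). Markers of body wall muscle (11 of 12 found, none below 1 FPKM throughout) summed to 2307 to 3289 FPKM at day 12 and 3715 to 4735 FPKM at day 2. With libraries set to one median, 5 of their 15 tested transcripts were called lower and none higher in each arm. Of all transcripts, 12.3% in met-1 RNAi-labelled and 11.9% in L4440 animals were called lower. The part of body wall muscle in the values of these receptors was not tested.

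Sensory genes held the members with the clearest opposite changes. Of 4 genes tested, 2 fell and 1 rose in each arm. The shares of all genes were 16.1% lower and 11.5% higher in met-1 RNAi-labelled and 16.3% and 9.03% in L4440 animals. The alpha-tubulin mec-12 and the beta-tubulin mec-7 build the thick microtubules of the touch receptor neurons. The mec-12 gene had 18.9 and 17.8 FPKM at day 12, against 45.4 and 35.2 FPKM at day 2, in met-1 RNAi-labelled animals. L4440 animals had 19.1 and 21.8 FPKM at day 12, against 45.6 and 35.6 FPKM at day 2. The mec-7 gene had 8.21 and 9.33 FPKM at day 12, against 15.02 and 13.6 FPKM at day 2, in met-1 RNAi-labelled animals. L4440 animals had 8.31 and 12.5 FPKM at day 12, against 17.9 and 16.4 FPKM at day 2. For both, every day 12 library was below every day 2 library. The change of mec-12 was −1.59 ± 0.18 in met-1 RNAi-labelled animals (SE, limma adjusted p = 0.00216) and −1.51 ± 0.18 in L4440 animals (adjusted p = 0.00277). That of mec-7 was −1.16 ± 0.21 in met-1 RNAi-labelled animals (SE, limma adjusted p = 0.0107) and −1.26 ± 0.21 in L4440 animals (adjusted p = 0.0087). The mec-7 call was lost in met-1 RNAi-labelled animals without replicate 1 of day 12 or either day 2 library of that arm (adjusted p up to 0.0683). The touch channel subunit mec-4, made in the same neurons, had 1.28 and 1.07 FPKM at day 12, against 0.430 and 0.672 FPKM at day 2, in met-1 RNAi-labelled animals. L4440 animals had 1.05 and 1.67 FPKM at day 12, against 0.638 and 0.555 FPKM at day 2. The change was −0.02 in met-1 RNAi-labelled and −0.01 in L4440 animals (limma adjusted p = 0.961 and 0.982). The difference between mec-4 and the tubulin genes was not tested.

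The G protein alpha subunit odr-3, which carries odour signals in olfactory neurons, rose most of all members that were called. It had 10.998 and 19.1 FPKM at day 12, against 1.12 and 1.24 FPKM at day 2, in met-1 RNAi-labelled animals. L4440 animals had 10.4 and 9.98 FPKM at day 12, against 0.851 and 0.634 FPKM at day 2. The 4 day 12 libraries lay far above the 4 day 2 libraries. The change was 2.32 ± 0.27 in met-1 RNAi-labelled animals (SE, limma adjusted p = 0.0025) and 2.12 ± 0.27 in L4440 animals (adjusted p = 0.00367). In the tables with 1 value per age odr-3 had 15.96 against 1.90 FPKM in met-1 mutants, 10.9 against 1.33 FPKM in their controls and 5.99 against 2.03 FPKM in untreated animals at day 12 against day 2. The cyclic nucleotide-gated channel subunits tax-2 and tax-4, used in smell, taste and temperature sensing, averaged 0.468 and 0.487 FPKM and were not tested, and the channel gene osm-9 did not have the status OK.

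Among the excitability genes, the Gq subunit egl-30 and the Go subunit goa-1, which act against each other on transmitter release, were called lower, and the calcium-activated potassium channel slo-1 was not. The egl-30 sum was 171 and 183 FPKM at day 12, against 191 and 188 FPKM at day 2, in met-1 RNAi-labelled animals. L4440 animals had 152 and 169 FPKM at day 12, against 185 and 151 FPKM at day 2. The goa-1 gene had 133 and 138 FPKM at day 12, against 134 and 126 FPKM at day 2, in met-1 RNAi-labelled animals. L4440 animals had 141 and 138 FPKM at day 12, against 132 and 122 FPKM at day 2. As deposited, these groups lay close to each other or overlapped. Relative to the median the change of egl-30 was −0.61 ± 0.13 in met-1 RNAi-labelled animals (SE, limma adjusted p = 0.0182) and −0.62 ± 0.13 in L4440 animals (adjusted p = 0.0182). That of goa-1 was −0.45 ± 0.10 in met-1 RNAi-labelled animals (SE, limma adjusted p = 0.0203) and −0.42 ± 0.10 in L4440 animals (adjusted p = 0.0265). The direction of goa-1 depended on the scaling: as deposited the change was 0.06 in met-1 RNAi-labelled and 0.14 in L4440 animals (adjusted p = 0.631 and 0.287), and that of egl-30 was −0.10 and −0.06 (adjusted p = 0.561 and 0.737). After quantile normalization neither passed: the goa-1 change was −0.14 in met-1 RNAi-labelled and −0.07 in L4440 animals (limma adjusted p = 0.455 and 0.737) and the egl-30 change −0.26 in met-1 RNAi-labelled and −0.23 in L4440 animals (limma adjusted p = 0.27 and 0.332). Both lost their call in each arm without either day 12 library of that arm, and without either of its day 2 libraries, except egl-30 in L4440 animals without replicate 2 of day 2; goa-1 in L4440 animals also lost it without either met-1 RNAi-labelled day 2 library (adjusted p up to 0.12). The slo-1 difference was 0.14 in met-1 RNAi-labelled and −0.10 in L4440 animals (limma adjusted p = 0.672 and 0.778).

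The tables with 1 value per age hold other libraries of glp-1 animals, and 11 of the 13 genes called in both arms had the same sign of change in all 5 sets, goa-1 among them only after the 8 libraries were set to one median. How often other genes called in both arms kept one sign in all 5 sets was not counted, so this count has no share to stand beside. The untreated table lacks tbh-1 and covers only the minor transcript of tdc-1, and these had the same sign in the other 4 sets. These sets share no library. With 1 value per age there is no replicate check and no p-value. Past 2-fold on the log2(FPKM + 1) scale, 5 of 63 member transcripts were higher and 9 lower at day 12 in met-1 mutants, against 12.6% and 13.3% of all transcripts. In the controls of the mutant 3 of 63 were higher and 8 lower, against 10.04% and 11.03%. In untreated animals 3 of 66 were higher and 8 lower, against 6.24% and 10.7%. By the q-value of the authors' deposited table, 5 member transcripts were higher and 13 lower at day 12 in untreated animals at a threshold of 0.05, where 13.01% and 18.6% of all transcripts were. These counts go by the sign of the deposited log2 change; 1 further transcript, NM_001029089 of slo-1, is listed at 0 FPKM at day 12 against 1.45 FPKM at day 2 with a log2 change of 0 and a q of 2.20e-07 in the authors' deposited table. The higher ones were transcripts of nmr-1, odr-3, ric-19, snb-1 and unc-64, and the lower ones those of bas-1, dat-1, unc-25, unc-17, ace-2, unc-63, mec-12, mec-7, egl-30, goa-1, egl-21, egl-3 and unc-10. In the authors' deposited table the log2 change was −0.51 for egl-21 (q = 0.0159), −0.58 for egl-3 (q = 0.0297) and −0.69 for unc-10 (q = 0.00797). By gene sums, 4 of 13 genes of the release machinery were above 0 in untreated animals, with a median of −0.13. In met-1 mutants 12 of 15 were above 0 with a median of 0.27, in their controls 11 of 15 with 0.24, in met-1 RNAi-labelled animals 13 of 15 with 0.34 and in L4440 animals 11 of 15 with 0.28. The values of both RNA interference arms are from libraries set to one median, and those of the other sets are as deposited. For egl-3, unc-10, unc-13 and unc-2 the untreated sums also lack the transcripts matched by accession. The untreated value of unc-10 rests on 1 transcript that was too low to test in the 8 libraries. The untreated sums thus cover fewer transcripts than the other sets, and the difference between untreated and the other animals was not tested. For ric-19 the authors' deposited table gives 30.2 FPKM at day 12 against 12.2 FPKM at day 2, a log2 change of 1.31 with a q of 6.12e-10.

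**Figure D4:**
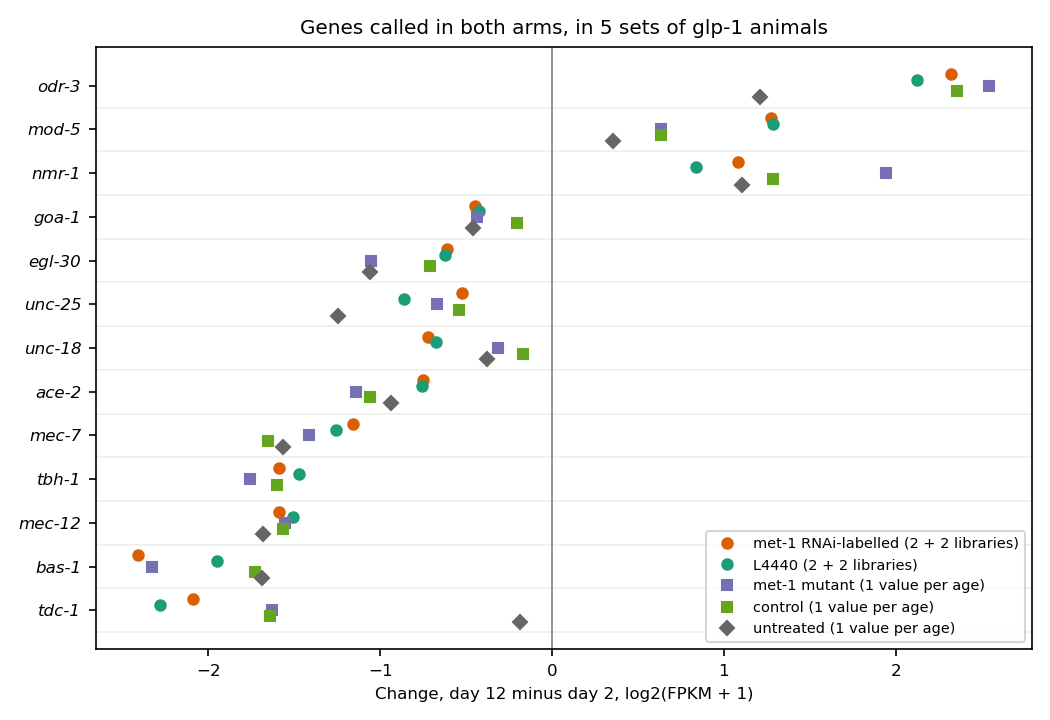
Change between day 12 and day 2 on the log2(FPKM + 1) scale for the 13 genes called in both arms, in 5 sets of glp-1 animals (circles from 2 libraries per age set to one median; squares and diamonds from 1 deposited value per age). The points of each gene lie on one side of 0, although goa-1 lies on the other side in both RNA interference arms as deposited; tbh-1 has no untreated value, and the untreated value of tdc-1 covers only its minor transcript.

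No gene sum and no transcript found by the rule differed past the test between animals labelled met-1 RNAi and L4440, and 1 transcript matched by accession did. At day 12 and at day 2, and for the difference of ageing between the arms, limma called 0 of 41 gene sums and 0 of the 48 transcripts found by the rule. Unadjusted p was below 0.05 for 2, 0 and 1 gene sums and for 4, 0 and 1 transcripts. Among all genes, 0.401% were called higher and 0.197% lower at day 12, 0.102% and 0.109% at day 2, and 0.286% and 0.102% for the difference of ageing. Among all transcripts the shares were 0.307% and 0.194%, 0.0754% and 0.0754%, and 0.264% and 0.108%. Of 19 further transcripts matched by accession, 1 was called lower at day 12, and none at day 2 or for the difference of ageing, with unadjusted p below 0.05 for 2, 2 and 3. It was NM_001268775 of lev-1, with 0.143 and 0.00117 FPKM in met-1 RNAi-labelled animals, against 3.51 and 5.26 FPKM in L4440 animals, at day 12. The difference was −2.32 ± 0.28 (SE, limma adjusted p = 0.0423). It was lost without any 1 of the libraries other than replicate 1 of L4440 at day 12 (adjusted p up to 0.151), under the replicate block (adjusted p = 0.117), after quantile normalization (adjusted p = 0.0644), with a pseudocount of 0.1 (adjusted p = 0.185) and in a fit of the 2 groups alone (adjusted p = 0.257). The other lev-1 transcript, NM_001268776, had 7.43 and 6.23 FPKM in met-1 RNAi-labelled animals, against 3.21 and 0.000220 FPKM in L4440 animals, and the lev-1 sum differed by 0.18 (adjusted p = 0.764). Among gene sums the smallest p at day 12 belonged to bas-1, which differed by −0.58 ± 0.11 between met-1 RNAi-labelled and L4440 animals (SE, limma unadjusted p = 0.00199, adjusted p = 0.137). Its difference of ageing was −0.46 ± 0.15 (adjusted p = 0.704). Met-1 mutants had 13.7 FPKM of bas-1 at day 12, against 22.5 FPKM in controls, and 72.6 FPKM at day 2, against 76.8 FPKM in controls. These values have no replicates. Without replicate 2 of the met-1 RNAi-labelled day 12 libraries, unc-31 was the 1 gene sum called higher in that arm at day 12, from the single value described above.

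Between met-1 mutants and controls, 0 of 63 member transcripts were past 2-fold higher and 2 past 2-fold lower at day 2, against 8.17% and 3.20% of all transcripts. At day 12 there were 0 and 1, against 7.64% and 3.37%. The median difference of the members was 0.12 at day 2 and 0.13 at day 12, beside 0.14 and 0.12 for all transcripts. By gene sums, the values furthest apart at day 12 were those of lev-1, with 7.92 FPKM in mutants and 3.58 FPKM in controls, nmr-1, with 4.66 FPKM in mutants and 2.25 FPKM in controls, slo-1, with 5.88 FPKM in mutants and 3.02 FPKM in controls, and unc-49, with 27.7 FPKM in mutants and 16.5 FPKM in controls.

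Genes of the same pathways outside the 50 were counted alike, and the balance of their calls depended on the scaling. Beside the counts here and in the next paragraph stand the shares of all transcripts. With libraries set to one median these were 8.35% higher and 12.3% lower in met-1 RNAi-labelled and 6.78% and 11.9% in L4440 animals. As deposited they were 23.8% and 7.64% in met-1 RNAi-labelled and 22.6% and 7.28% in L4440 animals. With libraries set to one median, of 20 tested transcripts of other transmitter genes, 3 rose and 5 fell in met-1 RNAi-labelled animals and 1 rose and 6 fell in L4440 animals; as deposited, 5 were higher and 3 lower, and 5 higher and 4 lower. GTP cyclohydrolase cat-4, which makes the cofactor of serotonin and dopamine synthesis, had 218 and 222 FPKM at day 12, against 413 and 379 FPKM at day 2, in met-1 RNAi-labelled animals. L4440 animals had 234 and 227 FPKM at day 12, against 493 and 462 FPKM at day 2. Its change was −1.33 in met-1 RNAi-labelled and −1.57 in L4440 animals (limma adjusted p = 0.00112 and 0.000842). The GABA transaminase gta-1 changed by −1.67 in met-1 RNAi-labelled and −1.60 in L4440 animals (limma adjusted p = 0.00103 and 0.00132). The betaine transporter snf-3 changed by −0.68 in met-1 RNAi-labelled and −0.85 in L4440 animals (limma adjusted p = 0.0215 and 0.0109). The catechol methyltransferase homologue comt-1 fell in both arms. It was listed at 0 in both L4440 day 12 libraries and had 0.946 and 1.29 FPKM at day 2 there.

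Of 79 tested transcripts of other receptors, 2 rose and 5 fell in met-1 RNAi-labelled animals and 6 fell in L4440 animals. As deposited, 18 were higher and none lower in met-1 RNAi-labelled animals, and 11 were higher and 1 lower in L4440 animals. Those called lower in both arms with one median were acr-25, of the nicotinic family, the octopamine receptor ser-3, the dopamine receptor dop-2 and the glutamate-gated chloride channel avr-15, with changes between −0.78 and −1.20. Of 26 other sensory transcripts, 2 rose and 1 fell in met-1 RNAi-labelled animals and 2 rose and 2 fell in L4440 animals, and as deposited 5 were higher and none lower, and 3 higher and 1 lower. The diacetyl receptor odr-10 had 2.90 and 2.75 FPKM at day 12, against 0.171 and 0.0824 FPKM at day 2, in met-1 RNAi-labelled animals. L4440 animals had 4.36 and 5.73 FPKM at day 12, and it was listed at 0 in both of their day 2 libraries. The ciliary transport gene osm-6 changed by 1.45 in met-1 RNAi-labelled and 1.81 in L4440 animals (limma adjusted p = 0.00897 and 0.00473). The tubulin acetyltransferase mec-17 of touch neurons changed by −0.94 in met-1 RNAi-labelled and −0.91 in L4440 animals (limma adjusted p = 0.0104 and 0.0126). Of 56 other excitability transcripts, 1 rose and 1 fell in met-1 RNAi-labelled animals and 1 rose and 4 fell in L4440 animals, and as deposited 6 were higher and 1 lower, and 5 higher and 3 lower. The muscle potassium channel twk-18 changed by −1.82 in met-1 RNAi-labelled and −2.23 in L4440 animals (limma adjusted p = 0.0036 and 0.00213). Of 68 other release transcripts, 2 rose and 1 fell in met-1 RNAi-labelled animals and 1 fell in L4440 animals, and none was called in both arms. As deposited 11 were higher in met-1 RNAi-labelled and 8 in L4440 animals, and none lower.

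Markers of other cells moved with age in the same libraries. Germline markers (15 found, 7 of them below 1 FPKM in every library, among them pgl-1 and rme-2) summed to 53.7 to 72.9 FPKM at day 12 and 17.6 to 20.2 FPKM at day 2. Sperm markers (4 found, fer-1 and spe-9 below 1 FPKM throughout) summed to 18.4 to 29.6 FPKM at day 12 and 2.37 to 3.09 FPKM at day 2. Most of the day 12 sum was spe-11, at 15.8 to 26.7 FPKM. Hypodermis markers summed to 277 to 295 FPKM at day 12 and 2172 to 2487 FPKM at day 2, with dpy-7 and rol-6 below 1 FPKM throughout. Most of this was the collagen gene col-19, at 192 to 212 FPKM at day 12 and 2052 to 2385 FPKM at day 2. Pharynx markers summed to 364 to 437 FPKM at day 12 and 199.8 to 228 FPKM at day 2, glia markers (ptr-10 below 1 FPKM throughout) to 9.68 to 13.6 FPKM and 6.06 to 11.2 FPKM, and intestine markers to 5039 to 11299 FPKM and 6826 to 10967 FPKM. These sums are as deposited; with one median per library, no gene sum of the pharynx or glia markers was called, and their median changes were −0.14 and −0.06 in met-1 RNAi-labelled and 0.13 and −0.36 in L4440 animals. The part of these cells in the changes of the neuronal genes was not tested.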

How the data were processed

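The authors deposited 4 tables of poly-A RNA sequencing. FPKM, fragments per transcript length and mapped fragments, is the unit of 3 of them, per the file headers; the table of 8 RNA interference libraries states no unit and was taken as FPKM. The log2 fold change and the q-value of untreated animals are the authors' deposited values. CASAVA 1.8, BWA, TopHat, TopHat2 and Cuffdiff are named, per the submitters' processing notes; not given in the sources used here are build, annotation and strandedness, so overlapping or antisense genes may share reads, and depth is known only as relative reads, judged from steps between low values. A value of 0 may come from an estimate that failed.

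Transcripts were tested in the 8 libraries with limma 3.58.1 in R 4.3.3 on log2(FPKM + 1), which understates changes of low genes, with 4 groups in 1 fit and at least 1 FPKM in at least 2 libraries; 1112 transcripts whose status was not OK were left out. Calls used an adjusted p below 0.05 over all tested transcripts; gene sums were fitted alike. The script was tested on simulated data. No label says that a shared replicate number pairs libraries, so the main fit did not pair them. RefSeq accessions gave symbols (52 of the 66 transcripts matched). Members and lists were chosen with earlier results of these data known. Any of the 50 genes could be named, with library values for called ones and abundant ones; from other lists, up to 4 transcripts called in both arms. The sequence of no gene is printed.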

Additional observations from a re-analysis of the deposited data

How the results depend on the processing

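The settings applied to gene sums were chosen after seeing the data. As deposited, member transcripts called were 5 higher and 2 lower in met-1 RNAi-labelled animals and 8 higher and 2 lower in L4440 animals (all transcripts 23.8% and 7.64%, and 22.6% and 7.28%); as gene sums they were 13 higher and 5 lower, and 11 higher and 5 lower. With only the 2 groups compared in the fit, 1 transcript was higher in each arm and 3 were lower in L4440 animals, and summing per gene gave 10 lower in each arm. Quantile normalization of gene sums gave 5 higher and 6 lower in met-1 RNAi-labelled animals. Leaving out 1 library at a time, where a lone library was assumed to vary like the other groups, gave for transcripts 1 to 3 higher and 2 to 6 lower in met-1 RNAi-labelled animals and 1 to 3 higher and 2 to 5 lower in L4440 animals. For gene sums it gave 1 to 5 higher and 4 to 9 lower, and 1 to 3 higher and 6 to 9 lower; between arms at day 12 and for the difference of ageing it gave 0 to 1 higher. The goa-1 change turned to 0.0608 in met-1 RNAi-labelled and 0.14 in L4440 animals as deposited. With 1 value per age, a pseudocount of 0.1 gave 12 higher in met-1 mutants, 8 higher in controls and 17 lower in untreated animals, and between mutants and controls 6 higher and 5 lower at day 2 and 7 higher at day 12. Requiring 1 FPKM at both values gave 3 higher in mutants, 5 lower in controls, and 0 lower between mutants and controls at either age. The cause of these differences was not tested, apart from the median shift that defines the deposited scaling.

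The deviations of same-numbered day 12 and day 2 libraries correlated at 0.01 in met-1 RNAi-labelled and −0.04 in L4440 animals. Same-numbered libraries of the met-1 RNAi-labelled and L4440 arms at one age were not compared, so a tie between the arms was not tested. The replicate block was 1 term common to all groups and cannot describe a tie at only one age. With this block the counts of calls stayed within 1.5 times. Among gene sums the block ended the call of unc-25 in met-1 RNAi-labelled animals at −0.53 and of nmr-1 in L4440 animals at 0.84. Low genes such as tph-1, tax-2 and glr-1 lay under the filter, so changes in them were not tested in the main fit.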
